A study of Mus musculus with 8 samples.

Results

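The 10 genes described here encode the core of the microvillus, the finger-like actin-based protrusion that covers the apical face of absorptive intestinal cells: Vil1, Espn, Pls1, Eps8, Myo1a, Ezr, Cdhr2, Cdhr5, Ush1c and Myo7b. They were chosen by name for their known roles in the microvillus, with earlier results of these data known. All 10 were among the 23366 gene symbols of the count tables, and all 10 passed the filter on low counts that left 20427 genes for testing. RNA was sequenced from mouse intestinal epithelial cells, whose segment of the gut the labels do not name, sorted by flow cytometry as CD326+ cells (CD326 is the epithelial adhesion molecule Epcam). In all, 4 groups of 2 libraries each were formed by genotype and by the surface marker CD44. The Sox4cKO CD44plus and control CD44plus groups hold CD44+ cells, a gate enriched for crypt cells, and the Sox4cKO CD44minus and control CD44minus groups hold CD44- cells, a gate enriched for villus cells. Sox4cKO mice carried Sox4fl/fl together with vilCre+/-, and control mice carried Sox4fl/fl alone, so floxed Sox4 alleles were present in every animal. Cre was driven by the villin promoter, the regulatory sequence of Vil1 itself, which is active along the whole intestinal epithelium. The animals were male littermates 6 weeks old, and each library came from 50000 sorted cells of 1 animal.

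A microvillus holds a bundle of parallel actin filaments that is crosslinked by villin (Vil1), espin (Espn) and plastin 1 (Pls1, also called fimbrin), with Eps8 at the tip, where the fast-growing ends of the filaments lie. Myosin 1a (Myo1a) and ezrin (Ezr) tie the bundle to the plasma membrane around it. Neighbouring microvilli are held together at their tips by the protocadherins Cdhr2 and Cdhr5, whose tails are anchored inside the tip by the scaffold harmonin (Ush1c) and the motor myosin 7b (Myo7b). In the intestine the brush border is built as cells leave the crypt and mature on the villus, and enterocytes of the villus carry the tallest and most tightly packed microvilli.

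The promoters of 8 of the 10 genes were found in RefSeq on GRCm38.p6, as 10 windows (3 of them for Espn) from 250 bases before to 50 bases after a gene's start. The windows of Vil1, the highest of the 10 per kilobase of exon, and of the protocadherins Cdhr5 and Cdhr2 are shown. Both protocadherins had fewer reads per Vil1 read in CD44plus than in CD44minus cells, as given below. Espn also held motif matches, and its windows are not shown. Each window shown holds a match to 1 of the motifs searched. Each is written 5′ to 3′ on the strand of its gene, with the motif match in capitals.
Vil1, chr1:74409134-74409433, plus strand: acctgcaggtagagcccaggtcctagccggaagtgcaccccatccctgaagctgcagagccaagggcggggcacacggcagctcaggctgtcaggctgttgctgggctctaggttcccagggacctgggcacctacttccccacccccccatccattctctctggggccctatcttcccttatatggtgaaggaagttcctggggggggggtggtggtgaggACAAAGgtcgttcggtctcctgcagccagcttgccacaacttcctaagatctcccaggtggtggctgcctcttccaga
Cdhr5, chr7:141276737-141277036, minus strand: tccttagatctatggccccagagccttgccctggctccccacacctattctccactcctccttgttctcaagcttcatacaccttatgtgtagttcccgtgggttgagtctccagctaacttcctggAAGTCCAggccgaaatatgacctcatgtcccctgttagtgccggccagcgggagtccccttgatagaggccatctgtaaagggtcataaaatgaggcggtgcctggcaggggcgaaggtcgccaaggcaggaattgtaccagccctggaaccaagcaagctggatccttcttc
Cdhr2, chr13:54701213-54701512, plus strand: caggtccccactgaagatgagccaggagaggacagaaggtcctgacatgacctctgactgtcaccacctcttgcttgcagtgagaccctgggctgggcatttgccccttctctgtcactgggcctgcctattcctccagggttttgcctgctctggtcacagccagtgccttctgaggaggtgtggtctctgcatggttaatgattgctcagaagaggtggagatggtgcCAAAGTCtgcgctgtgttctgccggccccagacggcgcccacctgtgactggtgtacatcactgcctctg
The capitals in Vil1 mark ACAAAG, a hexamer bound by SOX factors, 28 bases before the start. Those in Cdhr5 mark AAGTCCA, 123 bases before the start, and those in Cdhr2 mark CAAAGTC, 20 bases before it. These are the 2 overlapping parts of CAAAGTCCA, a site of the nuclear receptor HNF4, and the full CAAAGTCCA stood in none of the 10 windows. Both strands were searched, and the share of all 32851 promoters of this length that held each motif was 18.7% for ACAAAG, 4.17% for AAGTCCA, 4.44% for CAAAGTC and 0.475% for CAAAGTCCA. ACAAAG was also found in a window of Espn. The CDX motif TTTATNG was found in 1 window of Espn and in 10.9% of all promoters, and TATAAA was found in none of the 10 windows and in 13.6% of all promoters.

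Gene counts per library were 7679575 and 13238050 in Sox4cKO CD44plus, 12249272 and 6007554 in control CD44plus, 1175251 and 6963345 in Sox4cKO CD44minus and 886194 and 2327002 in control CD44minus, each pair given as replicate 1 and replicate 2, an order kept below. Members had between 76 reads (Espn) and 19741 reads (Vil1) in a library. Levels are given as CPM, a gene's reads brought to a common library total, scaled by edgeR's TMM factors unless library totals are named. The TMM factors ran from 0.527 in Sox4cKO CD44minus replicate 2 to 1.72 in Sox4cKO CD44minus replicate 1, so the choice of scaling changes the CD44minus values more than the CD44plus ones. Sox4cKO CD44minus replicate 2 stood apart, with the highest TMM-scaled level of all 10 members. The members' fold changes between the gates in Sox4cKO and between the genotypes in CD44minus are also summarised without it. The other gene lists and the correlations are given only with it. Within a group, a member's 2 libraries differed 4.93-fold to 6.36-fold in Sox4cKO CD44minus after TMM scaling, but 1.51-fold to 1.95-fold on library totals. In control CD44minus these ratios were 2.08 to 2.43 with TMM scaling and 1.36 to 1.59 on library totals. In the CD44plus groups they were at most 1.29 in Sox4cKO and 1.42 in control with TMM scaling. Sox4, the deleted gene, gave 17.8 and 25.7 CPM in Sox4cKO CD44plus, against 128 and 120.2 CPM in control CD44plus. In the other gate Sox4 was low, with 1.98 and 0.272 CPM in Sox4cKO CD44minus, against 6.74 and 8.26 CPM in control CD44minus. Cd44, the gate marker, had 203 and 327 CPM in Sox4cKO CD44plus, against 27.2 and 5.72 CPM in Sox4cKO CD44minus, and 246 and 270.1 CPM in control CD44plus, against 23.6 and 16.1 CPM in control CD44minus. Epcam, which encodes CD326, had at least 473 CPM in every library. Between 64.6% and 96.6% of uniquely placed reads were counted to no gene. Reads that fall evenly over the genome were gauged from olfactory and vomeronasal receptor genes, which took 70.3 to 362 CPM in CD44plus libraries and 186 to 4144 CPM in CD44minus libraries. That level predicts at most 1.34% of the reads as the median over members in a library, and at most 17.0% for a single member, Espn in control CD44minus replicate 1. For Sox4 it predicts 14.8 and 3.95 reads in Sox4cKO CD44minus, where 4 and 1 were counted. In control CD44minus it predicts 9.83 and 9.71 Sox4 reads, where 10 and 21 were counted.

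Per kilobase of exon, on library totals, Vil1 had the highest level of the 10 genes and Espn the lowest in all 4 groups. Vil1 averaged 185 ± 37.3 CPM per kb in Sox4cKO CD44plus and 167 ± 17.8 in control CD44plus (SD, n = 2 each). In the CD44minus gate its level was 737 ± 241 CPM per kb in Sox4cKO and 694 ± 152 in control (SD, n = 2 each). Myo1a came next in every group, at 136, 132, 540.5 and 532 CPM per kb in the same order of groups. Espn, at the other end, had 2.75 CPM per kb in Sox4cKO CD44plus, 2.94 in control CD44plus, 19.9 in Sox4cKO CD44minus and 16 in control CD44minus. Between these ends the order differed between the gates. In both CD44plus groups the order after Myo1a began with Ezr, Cdhr5 and Myo7b, followed by Cdhr2 and Ush1c in either order, with Eps8 and Pls1 above Espn. In both CD44minus groups the order after Myo1a was Cdhr5, Ezr, Cdhr2, Myo7b, Pls1, Ush1c and Eps8. Outside control CD44plus, most neighbours in this order overlapped in their 2 libraries. The ranges of neighbours stood apart in 3 of 9 pairs in Sox4cKO CD44plus, 7 of 9 in control CD44plus, 2 of 9 in Sox4cKO CD44minus and 3 of 9 in control CD44minus. Cdhr2 stood above Myo7b without overlap in both CD44minus groups.

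**Figure D1:**
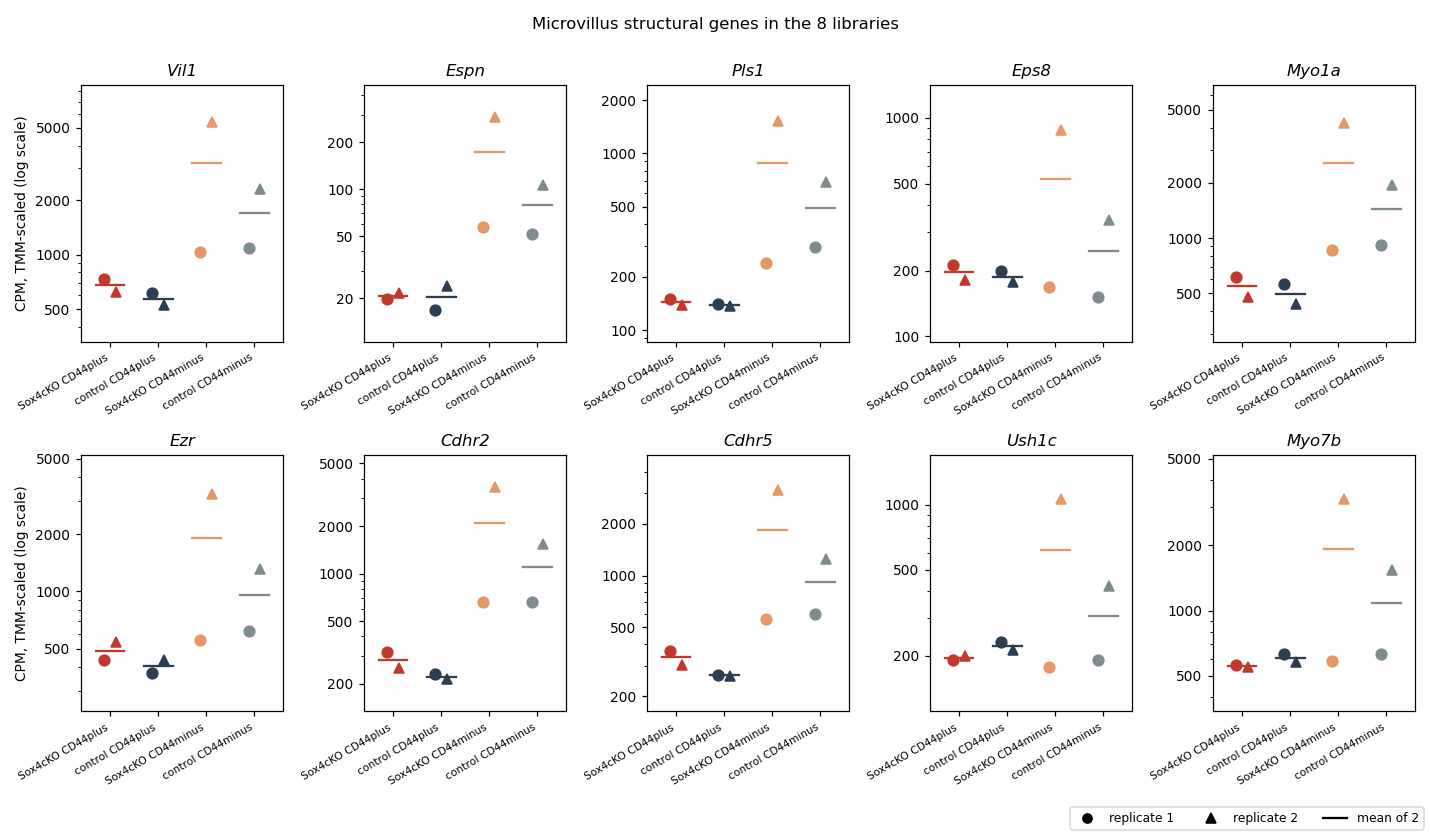
Level of each of the 10 microvillus genes in every library, as TMM-scaled CPM on a log axis, with circles for replicate 1, triangles for replicate 2 and a horizontal bar at the mean of the 2 libraries. The CD44minus libraries spread widely, with Vil1 at 1029 and 5378 CPM in Sox4cKO CD44minus, whereas its CD44plus libraries lie between 529 and 732 CPM.

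CD44plus cells were compared with CD44minus cells within each genotype, which asks how the genes differ between the crypt-enriched and the villus-enriched gate. All 10 log2 fold changes were negative in both genotypes, that is, lower in CD44plus. Their median was -2.24 in Sox4cKO and -1.54 in control, beside medians of -0.48 and -0.19 over all genes tested. Espn was the only member called by edgeR's quasi-likelihood test, in Sox4cKO, and 0 of 10 were called in control, where DESeq2 called 6, beside 4.92% of all genes called lower by it. An unadjusted p under 0.05 was reached by 4 members in Sox4cKO, beside 17.7% of all genes, and by 1 in control, beside 23%. At the threshold for a call, an adjusted p of 0.05, 0.93% of all genes tested were called lower in Sox4cKO and 0.445% in control. In bulk RNA of this kind, fewer cells of a type and less RNA per cell cannot be told apart.

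Among the genes of the actin bundle, Vil1, the highest per kilobase, bundles, caps and severs actin. It stood at 732 and 620.0 CPM in Sox4cKO CD44plus, against 1029 and 5378 CPM in Sox4cKO CD44minus, and at 614 and 529 CPM in control CD44plus, against 1093 and 2289 CPM in control CD44minus. Every CD44plus library lay below every CD44minus library. The log2 fold change was -2.24 in Sox4cKO (SE 1.25, edgeR adjusted p = 0.346) and -1.57 in control (SE 1.23, edgeR adjusted p = 0.387). Its gene lies at chr1:74409376-74435559 on GRCm38 and shares 49 exonic bases with Usp37 on the other strand. Espn, which encodes an actin crosslinker that lengthens microvilli, lies at chr4:152120331-152152371. It gave 19.7 and 21.4 CPM in Sox4cKO CD44plus, against 57 and 290.2 CPM in Sox4cKO CD44minus. In control it gave 16.8 and 23.9 CPM in CD44plus, against 51.2 and 107 CPM in CD44minus. The gates did not overlap in either genotype. Espn was 8.46-fold lower in CD44plus than in CD44minus in Sox4cKO (log2 fold change -3.08, SE 0.78, edgeR adjusted p = 0.0422). In control the log2 fold change was -1.96 (SE 0.75, edgeR adjusted p = 0.151). With the replicate number as a block, or with the animal as a random block in limma-voom, Espn was called in control too. The call in Sox4cKO was lost when any of 5 libraries was left out: either control CD44plus library, either Sox4cKO CD44plus library or control CD44minus replicate 2. It was also lost when only the 4 Sox4cKO libraries entered the fit.

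Pls1, the crosslinker that sets the spacing of filaments in the bundle (chr9:95752642-95845311), stood at 151 and 138 CPM in Sox4cKO CD44plus, against 239 and 1519 CPM in Sox4cKO CD44minus. In control it stood at 140.3 and 138 CPM in CD44plus, against 296 and 688 CPM in CD44minus. The 4 CD44plus libraries were close to each other and below all CD44minus libraries. Its log2 fold change was -2.61 in Sox4cKO (SE 1.02, edgeR adjusted p = 0.197) and -1.82 in control (SE 0.99, edgeR adjusted p = 0.255). Eps8, the capping and bundling protein of the tip (chr6:137477245-137654876), had the log2 fold changes nearest 0 of the 10 genes. It had 212 and 182 CPM in Sox4cKO CD44plus, against 168 and 881 CPM in Sox4cKO CD44minus, and 199 and 178 CPM in control CD44plus, against 152 and 342 CPM in control CD44minus. In both genotypes the CD44minus replicate 1 library lay below the CD44plus libraries and the replicate 2 library above them, so the gates overlapped. The log2 fold changes of -1.42 in Sox4cKO (SE 0.91) and -0.39 in control (SE 0.90) were not called by edgeR.

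The membrane linkers followed Vil1 closely. Myo1a, the motor that bridges bundle and membrane (chr10:127705170-127720940), had 615 and 475 CPM in Sox4cKO CD44plus, against 861 and 4245 CPM in Sox4cKO CD44minus, and 560.2 and 437 CPM in control CD44plus, against 911 and 1951 CPM in control CD44minus. Ezr, the linker that binds phosphoinositides and actin, gave 434 and 541 CPM in Sox4cKO CD44plus, against 556 and 3265 CPM in Sox4cKO CD44minus, and 373 and 435 CPM in control CD44plus, against 618 and 1307 CPM in control CD44minus. For both genes all CD44plus libraries were lower than the CD44minus libraries of their genotype. Log2 fold changes were -2.23 (SE 1.20) in Sox4cKO and -1.52 (SE 1.18) in control for Myo1a, and -1.97 (SE 1.14) in Sox4cKO and -1.25 (SE 1.11) in control for Ezr, none of them called by edgeR. Ezr (chr17:6738041-6782784) shares 4 exonic bases with Sytl3 on the other strand.

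The adhesion complex joins the protocadherins, which reach from tip to tip, to their anchors. Cdhr2 (chr13:54701461-54736662) stood at 317 and 252 CPM in Sox4cKO CD44plus, against 666 and 3516 CPM in Sox4cKO CD44minus, and at 232 and 214 CPM in control CD44plus, against 663 and 1541 CPM in control CD44minus. Its partner Cdhr5 (chr7:141269083-141276786) had 367 and 303 CPM in Sox4cKO CD44plus, against 559 and 3118 CPM in Sox4cKO CD44minus, and 266 and 261 CPM in control CD44plus, against 598 and 1242 CPM in control CD44minus. No CD44plus library of either protocadherin reached its CD44minus range. The log2 fold change of Cdhr2 was -2.88 in Sox4cKO (SE 1.17, edgeR adjusted p = 0.214) and -2.31 in control (SE 1.14, edgeR adjusted p = 0.228), which was the farthest from 0 of the 10 in control. For Cdhr5 it was -2.46 in Sox4cKO (SE 1.13) and -1.80 in control (SE 1.10).

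The anchors of the complex had log2 fold changes nearer 0. Ush1c, the scaffold (chr7:46195350-46238503), gave 190.3 and 198 CPM in Sox4cKO CD44plus, against 176 and 1061 CPM in Sox4cKO CD44minus, and 232 and 213 CPM in control CD44plus, against 191 and 421 CPM in control CD44minus. Its gates overlapped in both genotypes, since each CD44minus replicate 1 library lay below the CD44plus libraries. Myo7b, the motor, had 562 and 549 CPM in Sox4cKO CD44plus, against 585 and 3254 CPM in Sox4cKO CD44minus, and 628 and 581 CPM in control CD44plus, against 633 and 1538 CPM in control CD44minus. The gates of Myo7b were separated only narrowly, by the CD44minus replicate 1 libraries. Log2 fold changes were -1.67 (SE 0.95) in Sox4cKO and -0.46 (SE 0.93) in control for Ush1c, and -1.79 (SE 1.15) in Sox4cKO and -0.84 (SE 1.13) in control for Myo7b, none called by edgeR. Ush1c shares 120 exonic bases with Gm9860 on the other strand.

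Across the list, 8 of 10 members had CD44plus libraries that all lay below the CD44minus libraries in Sox4cKO, where 16.2% of all genes tested did, and 8 of 10 in control, where 41% did. The exceptions were Eps8 and Ush1c in both. The calls moved with the scaling, the tool and the libraries in the fit. RLE size factors left the calls of edgeR at 1 in Sox4cKO and 0 in control. On library totals without TMM factors, edgeR called all 10 members lower in CD44plus in Sox4cKO, beside 3.61% of all genes called lower, with folds of 2.26 (Eps8) to 7.27 (Espn). In control it called 7 of 10, beside 3.3% of all genes, and the folds over all 10 ran from 1.84 (Eps8) to 6.89 (Cdhr2). The 3 not called there were Myo7b (edgeR adjusted p = 0.0723), Ush1c (edgeR adjusted p = 0.108) and Eps8 (edgeR adjusted p = 0.118). On library totals the median over all genes was -0.72 in Sox4cKO and -0.77 in control, and the members' medians were -1.999 and -2.03. DESeq2 called 9 of 10 members in Sox4cKO, beside 5.04% of all genes called lower by it. Without Sox4cKO CD44minus replicate 2, the members' median in Sox4cKO was -0.62 beside -0.19 over all genes, and Eps8 and Ush1c had positive log2 fold changes. Without replicate 1 of that group all 10 were called lower, beside 8.25% of all genes, with a median of -2.98 beside 0.13 over all genes. In each of these fits the Sox4cKO CD44minus group holds 1 library, which is assumed to vary like the other groups.

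On library totals Vil1 was read at 659 and 494 CPM in Sox4cKO CD44plus, against 1768 and 2835 CPM in Sox4cKO CD44minus, and at 561 and 482 CPM in control CD44plus, against 1831 and 2502 CPM in control CD44minus. The 10 genes together took 3241 and 2615 CPM in Sox4cKO CD44plus, against 8413 and 13983 CPM in Sox4cKO CD44minus. In control they took 2979 and 2742 CPM in CD44plus, against 8722 and 12491 CPM in CD44minus. All 10 members had non-overlapping gates on this scale in both genotypes, where 15.2% of all genes in Sox4cKO and 49.6% in control also lay lower in CD44plus without overlap. Both gates of a replicate came from 1 animal, so the difference can be read animal by animal. On library totals all 10 members were lower in CD44plus in each of the 4 animals, with median log2 differences of -1.42 and -2.54 in the Sox4cKO animals and -1.66 and -2.40 in the control animals. With TMM scaling 8 of 10 were lower in replicate 1 and 10 of 10 in replicate 2 of each genotype. The same count per animal was not made over all genes, so no share of all genes stands beside these. On library totals the median over all genes was also negative, at -0.72 in Sox4cKO and -0.77 in control.

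**Figure D2:**
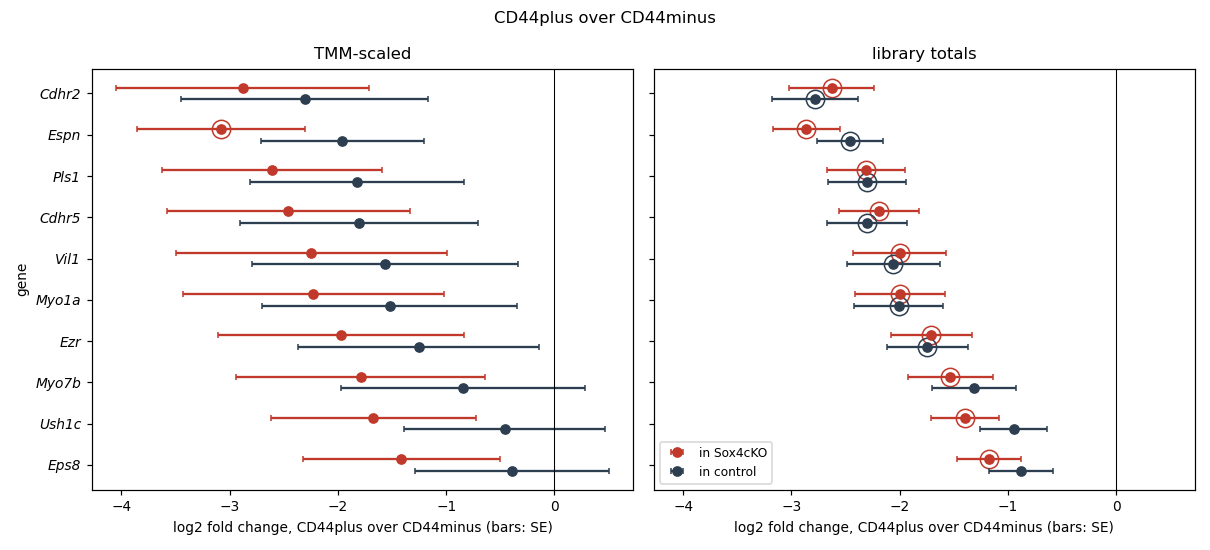
Log2 fold change of CD44plus over CD44minus for each of the 10 genes in Sox4cKO and in control, with TMM scaling and on library totals, with bars for the standard error and open rings for an edgeR adjusted p under 0.05. Every point lies below 0, and the only TMM-scaled point ringed is Espn in Sox4cKO at -3.08.

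Other markers moved with the gate. The 12 enterocyte markers, such as Alpi and Sis, summed to 2558 to 3130.3 CPM in Sox4cKO CD44plus and 12055 to 63070 CPM in Sox4cKO CD44minus, and to 2403 to 2848 CPM in control CD44plus and 14876 to 29246 CPM in control CD44minus. Of these 12, 4 were called lower in CD44plus in Sox4cKO and 2 in control, and 11 in each on library totals. The 5 Paneth markers, of a crypt cell type, summed to 4086 to 5009 CPM in Sox4cKO CD44plus, against 5749.5 to 31800 CPM in Sox4cKO CD44minus, and to 3335 to 3856 CPM in control CD44plus, against 9060.5 to 19538 CPM in control CD44minus. All 5 had negative log2 fold changes in both genotypes, against the crypt label of the CD44plus gate. None of the 5 was called, and on library totals 1 was called lower in Sox4cKO, where 1 other was positive, and 3 in control. The 6 stem cell markers, such as Lgr5 and Olfm4, ran the other way, at 4322 to 4499 CPM in Sox4cKO CD44plus, against 146 to 354 CPM in Sox4cKO CD44minus, and at 5363 to 5899.8 CPM in control CD44plus, against 110.5 to 188 CPM in control CD44minus. Of them, 2 were called higher in Sox4cKO and 4 in control, and Ascl2 was at 0 reads in Sox4cKO CD44minus replicate 2. Lymphocyte and mast cell markers were also higher in CD44plus. The 6 T cell and intraepithelial lymphocyte markers summed to 1612 to 4049 CPM in Sox4cKO CD44plus, against 126 to 578 CPM in Sox4cKO CD44minus, and 1539.6 to 2296 CPM in control CD44plus, against 121 to 196 CPM in control CD44minus, with 3 of 6 called higher in each genotype and 6 of 6 on library totals. The 4 mast cell markers summed to 2612 to 12256 CPM in Sox4cKO CD44plus, against 63.4 to 71.4 CPM in Sox4cKO CD44minus, and 1411 to 2328 CPM in control CD44plus, against 47.2 to 51.9 CPM in control CD44minus, with 3 of 4 called higher in Sox4cKO and 2 of 4 in control. Over all genes, edgeR called 0.93% lower and 1.66% higher in Sox4cKO, and 0.445% lower and 2.01% higher in control. On library totals it called 738 of 20427 lower and 1301 higher in Sox4cKO, and 675 lower and 1416 higher in control. No lymphocyte or mast cell marker was at 0. The part of these cells in the members' levels was not tested.

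Each member was also set against Vil1 within its library, as reads per Vil1 read, a ratio that no scaling factor changes. These ratios place Vil1 as the yardstick and describe how the parts of the microvillus differ from it. Cdhr2 had 0.377 to 0.433 in the 4 CD44plus libraries, against 0.607 to 0.673 in the 4 CD44minus libraries. Cdhr5 had 0.434 to 0.501 in the 4 CD44plus libraries, against 0.543 to 0.58 in the 4 CD44minus libraries. Both protocadherins were thus lower relative to Vil1 in CD44plus, by 1.59-fold and 1.16-fold. Espn had 0.0269 to 0.0452 in the 4 CD44plus libraries, against 0.0465 to 0.0553 in the 4 CD44minus libraries, but overlapped once the predicted evenly spread reads were subtracted, at 0.0247 to 0.0430 in CD44plus against 0.0390 to 0.0537 in CD44minus. These 3 genes lay below in all 4 CD44plus libraries, as did 1.05% of all genes tested other than Vil1.

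Other members lay above. Eps8 had 0.29 to 0.336 in the 4 CD44plus libraries, against 0.139 to 0.164 in the 4 CD44minus libraries. Ush1c had 0.26 to 0.403 in the 4 CD44plus libraries, against 0.171 to 0.197 in the 4 CD44minus libraries. Myo7b had 0.768 to 1.1 in the 4 CD44plus libraries, against 0.569 to 0.672 in the 4 CD44minus libraries. The 3 genes were 2.02-fold, 1.85-fold and 1.55-fold higher relative to Vil1 in CD44plus. They did not overlap between the gates, but 47.9% of all genes tested other than Vil1 also lay higher without overlap. The ratios of Pls1, Myo1a and Ezr overlapped between the gates. Within the adhesion complex, Cdhr2 and Cdhr5 thus lay lower in CD44plus relative to Vil1. Ush1c and Myo7b lay higher, as did 47.9% of all genes.

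**Figure D3:**
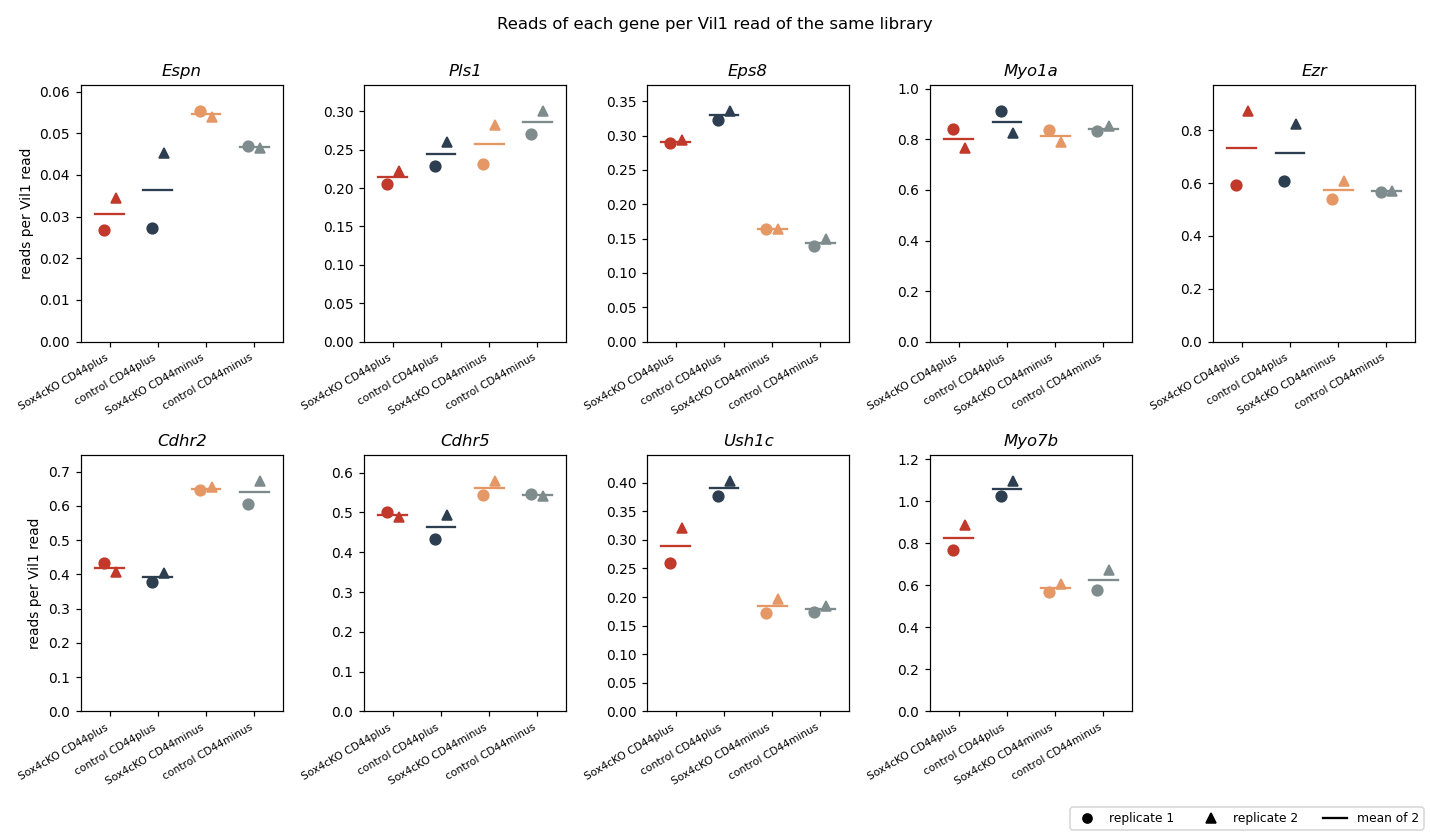
Reads of each of the other 9 genes per read of Vil1 in every library, on linear axes that start at 0, with circles for replicate 1, triangles for replicate 2 and bars for the mean of the 2 libraries. Eps8, Ush1c and Myo7b lie higher in all CD44plus libraries, and Cdhr2 and Cdhr5 lie lower. Of all genes tested other than Vil1, 47.9% lay higher in this way and 1.05% lower.

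Sox4cKO was compared with control within the CD44plus gate, which asks whether the genes differ when Sox4 is deleted in crypt-enriched cells. No member was called by edgeR's quasi-likelihood test: 0 of 10 had an unadjusted p under 0.05, and DESeq2 called 0. Over all genes tested, 0% were called and 0.627% had an unadjusted p under 0.05. Sox4, the deleted gene, was not called either (log2 fold change -2.51, SE 0.61), so a missing call does not show that a gene was unchanged. Log2 fold changes of the 10 members ran from -0.20 (Ush1c, SE 0.92) to 0.35 (Cdhr2, SE 1.09), with a median of 0.10 beside -0.00052 over all genes, and each had an edgeR adjusted p of 1. A fit of the 4 CD44plus libraries alone also called 0 of 10 members, and called 17 genes in all.

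Some members did not overlap between the genotypes in CD44plus. Cdhr2 had 317 and 252 CPM in Sox4cKO, against 232 and 214 CPM in control. Cdhr5 had 367 and 303 CPM in Sox4cKO, against 266 and 261 CPM in control. Vil1, at 732 and 620.0 CPM in Sox4cKO against 614 and 529 CPM in control, was the other gene with higher Sox4cKO libraries. These 3 of 10 stand beside 14.2% of all genes tested that lay higher without overlap. The anchors lay lower: Ush1c had 190.3 and 198 CPM in Sox4cKO against 232 and 213 CPM in control, and Myo7b had 562 and 549 CPM in Sox4cKO against 628 and 581 CPM in control. These 2 of 10 stand beside 16.4% of all genes. Pls1, Eps8, Espn, Myo1a and Ezr overlapped. On library totals the 3 higher genes overlapped too (0 of 10 higher, 9.15% of all genes), whereas Ush1c and Myo7b stayed lower, at 171 and 158 CPM and 506 and 438 CPM in Sox4cKO against 212 and 194 CPM and 574 and 529 CPM in control (2 of 10 lower, 22.9% of all genes).

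Relative to Vil1 the same anchors were lower in Sox4cKO CD44plus. Ush1c gave 0.26 and 0.32 reads per Vil1 read in Sox4cKO, against 0.377 and 0.403 in control. Myo7b gave 0.768 and 0.885 in Sox4cKO, against 1.02 and 1.1 in control. Eps8, at 0.29 and 0.293 in Sox4cKO against 0.323 and 0.336 in control, and Pls1, at 0.206 and 0.222 in Sox4cKO against 0.229 and 0.26 in control, lay lower as well. These 4 of 9 ratios stand beside 29.1% of all genes. Cdhr2, at 0.433 and 0.406 in Sox4cKO against 0.377 and 0.405 in control, was the only ratio that lay higher, by a narrow margin, beside 3.69% of all genes. The ratio rests on Vil1, whose own Sox4cKO libraries lay higher with TMM scaling. Enteroendocrine markers summed to 1167 to 1549 CPM in Sox4cKO CD44plus, against 4523 to 5616 CPM in control CD44plus, and mast cell markers to 2612 to 12256 CPM, against 1411 to 2328 CPM. Their part in these differences was not tested.

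**Figure D4:**
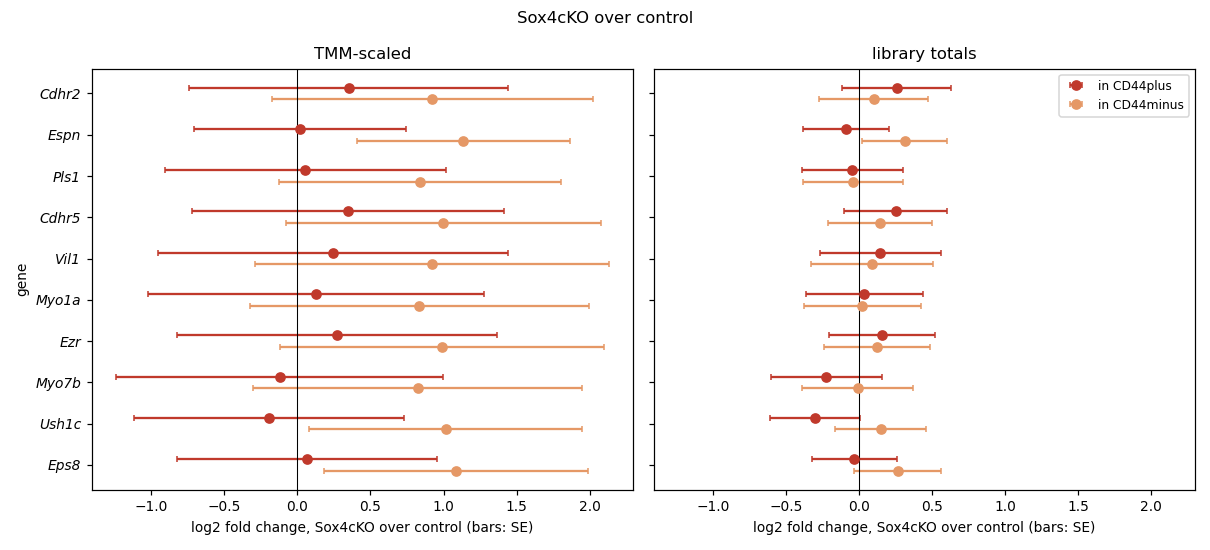
Log2 fold change of Sox4cKO over control for each of the 10 genes in CD44plus and in CD44minus, with TMM scaling and on library totals, with bars for the standard error; an open ring would mark an edgeR adjusted p under 0.05, and there is none. With TMM scaling, points in CD44plus lie near 0, from -0.20 to 0.35, and points in CD44minus lie above 0, from 0.82 to 1.14.

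In the CD44minus gate no member was called between Sox4cKO and control by edgeR (0 of 10 at an unadjusted p under 0.05, and 0 by DESeq2), beside 0% of all genes called and 0.568% at an unadjusted p under 0.05. Sox4 was not called here either (log2 fold change -2.95, SE 0.83), a value that rests on 4 and 1 reads in Sox4cKO and 10 and 21 in control. All 10 log2 fold changes of the members were positive, from 0.82 (Myo7b) to 1.14 (Espn), with a median of 0.96 beside 0.19 over all genes. All 10 overlapped between the genotypes, where 6.52% of all genes lay higher and 5.94% lower without overlap, since the control libraries lay between the 2 Sox4cKO libraries or just outside 1 of them. Vil1, for example, had 1029 and 5378 CPM in Sox4cKO CD44minus, against 1093 and 2289 CPM in control CD44minus. This direction rested on 1 library. Without Sox4cKO CD44minus replicate 2, all 10 fold changes were negative, from -1.05 to -0.49, with a median of -0.74 beside 0.0090 over all genes. Without replicate 1 of that group all 10 were positive, with a median of 1.70 beside -0.19 over all genes. On library totals the members' median was 0.11, beside -0.12 over all genes. The difference of the genotype effect between the gates, tested as an interaction, was called for 0 of 10 members by edgeR (0 at an unadjusted p under 0.05, 0 by DESeq2), beside 0% of all genes called and 0.245% at an unadjusted p under 0.05. Its log2 values ran from -1.21 to -0.57 over the members with TMM scaling, with a median of -0.75 beside -0.37 over all genes. Of all 20427 genes, 13298 had a negative value there. On library totals the members' median was 0.0038, beside -0.017 over all genes.

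Other genes of the microvillus and of the terminal web, the filament layer beneath it, were examined beside the members. Of 38 such genes, 2 were called lower in CD44plus in each genotype and none higher, beside 0.93% of all genes called lower in Sox4cKO and 0.445% in control. Pdzk1, the scaffold of apical transporters, had 10.4 and 12.7 CPM in Sox4cKO CD44plus, against 104 and 455 CPM in Sox4cKO CD44minus, and 5.54 and 4.57 CPM in control CD44plus, against 104 and 190.3 CPM in control CD44minus. Its log2 fold change was -4.59 in Sox4cKO (SE 0.87, edgeR adjusted p = 0.0147) and -4.86 in control (SE 0.88, edgeR adjusted p = 0.014). Tmigd1, an adhesion molecule of enterocytes, had 3.47 and 1.71 CPM in Sox4cKO CD44plus, against 19.3 and 82.3 CPM in Sox4cKO CD44minus, and 1.25 and 2.19 CPM in control CD44plus, against 8.76 and 20.8 CPM in control CD44minus. The gates of both genes were far apart. Tmigd1 changed by -4.31 in Sox4cKO (SE 0.81, edgeR adjusted p = 0.0146) and -3.15 in control (SE 0.80, edgeR adjusted p = 0.0472). Both remained called on library totals, where the counts for the list were 1 higher and 7 lower in Sox4cKO and 4 higher and 6 lower in control. Over all 20427 genes these counts were 1301 higher and 738 lower in Sox4cKO and 1416 higher and 675 lower in control. The list's median log2 fold change was -0.57 in Sox4cKO and 0.45 in control, near or above the -0.48 and -0.19 of all genes. The genes of this list with the highest mean CPM were Actb, Myh9 and Myh14, with log2 fold changes in Sox4cKO of -0.57, 1.01 and -2.39, and in control of 0.15, 1.76 and -1.47. None was called with TMM scaling, and on library totals Myh14 was called lower in Sox4cKO (edgeR adjusted p = 0.0431).

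Some relatives of the members from the same gene families were higher in CD44plus. Of 29 tested, 5 were called higher in CD44plus in Sox4cKO and 2 in control, and none lower, beside 1.66% and 2.01% of all genes called higher. Msn, which encodes moesin, a relative of ezrin, had 167 and 547 CPM in Sox4cKO CD44plus, against 13.4 and 30.2 CPM in Sox4cKO CD44minus, and 134 and 191 CPM in control CD44plus, against 6.06 and 18.9 CPM in control CD44minus. Lcp1, the leukocyte plastin, had 243 and 608 CPM in Sox4cKO CD44plus, against 26.7 and 37.1 CPM in Sox4cKO CD44minus, and 203 and 294 CPM in control CD44plus, against 21.6 and 25.2 CPM in control CD44minus. For both genes every CD44plus library lay above every CD44minus library. Msn rose by 4.02 in Sox4cKO (SE 0.91, edgeR adjusted p = 0.025) and 3.67 in control (SE 0.90, edgeR adjusted p = 0.0402), on the log2 scale. Lcp1 rose by 3.74 in Sox4cKO (SE 0.85, edgeR adjusted p = 0.0257) and 3.41 in control (SE 0.84, edgeR adjusted p = 0.0404). The other 3 called in Sox4cKO were Rdx, which encodes radixin, at 2.89, Myo1g, a myosin of blood cells, at 2.78, and Avil, the advillin of tuft cells and 1 of the 6 tuft markers, at 2.67. Those 3 were not called on library totals, whereas Msn and Lcp1 were. There 3 relatives were called lower in Sox4cKO and 2 in control, beside 3.61% and 3.3% of all genes. The lymphocyte and mast cell markers given above were higher in CD44plus, like the 5 called relatives, and their part in these was not tested. The list as a whole had 14 positive and 15 negative log2 fold changes in Sox4cKO (median -0.52). In control it had 13 positive and 16 negative (median -0.10). Cdh17, Eps8l2 and Eps8l3, with the highest mean CPM of the list, were not called with TMM scaling, at -0.98, -2.40 and -1.60 in Sox4cKO and 0.11, -1.53 and -0.34 in control. On library totals Eps8l2 was called lower in Sox4cKO (edgeR adjusted p = 0.00471) and in control (edgeR adjusted p = 0.00583), and Eps8l3 in Sox4cKO (edgeR adjusted p = 0.0125).

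Of 15 genes of apical trafficking, which carry proteins to the brush border, 0 were called between the gates in either genotype by edgeR, 0 had an unadjusted p under 0.05, and DESeq2 called 0. Highest in mean CPM were Myo5b, Rab11fip1 and Stxbp2, with log2 fold changes in Sox4cKO of -1.24, -0.49 and -0.37, and in control of -0.34, 0.45 and 0.31. The list had 10 of 15 negative values in Sox4cKO (median -0.37) and 12 of 15 positive values in control (median 0.45), where on library totals 9 of 15 were negative. Of 15 transcription factors known to act on brush border genes, edgeR called 0, with 2 at an unadjusted p under 0.05 in Sox4cKO and 1 in control, and DESeq2 called 2 lower in Sox4cKO and 1 lower in control. On library totals edgeR called 3 lower in Sox4cKO, and 2 lower and 1 higher in control. Over all genes, edgeR on library totals called 3.61% lower in Sox4cKO, and in control 3.3% lower and 1416 of 20427 higher. DESeq2 called 5.04% of all genes lower in Sox4cKO and 4.92% in control. An unadjusted edgeR p under 0.05 with TMM scaling was reached by 17.7% of all genes in Sox4cKO and 23% in control. Hnf4a, a nuclear receptor of enterocytes, gave 878 and 734 CPM in Sox4cKO CD44plus, against 260.5 and 1445 CPM in Sox4cKO CD44minus, and 940.1 and 779 CPM in control CD44plus, against 275 and 529.5 CPM in control CD44minus. The gates of Hnf4a overlapped in Sox4cKO and not in control, where CD44plus was higher and the log2 fold change was 1.10 (SE 1.05). In Sox4cKO its log2 fold change of -0.082 was smaller than its SE of 1.04. Klf5 and Elf3 had log2 fold changes of -0.18 and -0.18 in Sox4cKO and 1.14 and 0.89 in control. The list's median was -0.21 in Sox4cKO, with 12 of 15 negative, and 0.70 in control, with 12 of 15 positive, and this difference between the genotypes was called for 0 of 15 by edgeR. In the genotype comparisons edgeR and DESeq2 called 0 genes in each of these 4 lists.

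The 10 genes varied together over the 8 libraries. Pearson's r of TMM-scaled log2 CPM ran from 0.811 to 0.998 over their 45 pairs, with a median of 0.963. With the mean standardised profile of the 10, single members had r from 0.927 (Eps8) to 0.994 (Vil1). Among 5687 genes with a mean log2 CPM of at least 5, the non-members most like that profile were Sgpl1 at 0.998, Myh14 and Pcsk5 at 0.997, Lap3 and Eps8l2 at 0.996, Crat, Sec23a, Ckmt1 and Pcyt2 at 0.995 and Dpp4 at 0.994. Over all 5687 genes the median r was 0.124, the 90th percentile 0.878 and the 99th 0.985. These values describe 8 libraries that share their scaling factors and depth, and all 10 members were highest in Sox4cKO CD44minus replicate 2.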

How the data were processed

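The data are RNA sequencing counts of 8 libraries of sorted cells, 2 in each of 4 groups of genotype and CD44 gate. What the authors deposited is 1 table per library with the raw read count of every gene symbol. A low-input kit that keeps the strand was used on total RNA, per the labels' protocols. The mm10 build, STAR 2.2.5b, HTSeq 0.6.1p1, bcl2fastq 2.17.4 and Trimmomatic 0.36 are listed in the submitters' processing notes; settings, strand option and annotation are not given in the sources used here, so reads of genes that overlap on opposite strands cannot be assigned with certainty. Lines without a gene name stayed out of library sizes and tests (64.6% to 96.6% of uniquely placed reads).

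Tools were edgeR 4.0.16, DESeq2 1.42.0 and limma 3.58.1, run in R 4.3.3. A quasi-likelihood fit in edgeR covered the 4 groups together, after filterByExpr (minimum count 10) and TMM scaling, with Benjamini-Hochberg adjustment over 20427 genes and a threshold of 0.05. The SE given for edgeR, also drawn as bars, is the absolute log2 fold change divided by the square root of the test's F statistic. The biological coefficient of variation was 0.616. Gene symbols were matched to GENCODE M21 of GRCm38 for exon length (98.3% matched). Evenly spread reads were gauged from the coding length of olfactory and vomeronasal receptor genes and taken per kilobase of exon. The scripts were tested on simulated data. A count of 0 allows up to 3 counts, and this covers counting error only.

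Animal numbers in the names of the deposited tables are the same for both gates, so the gates of a replicate number within a genotype are paired; their deviations from group means correlated at 0.526 in Sox4cKO and 0.103 in control. A Sox4cKO and a control library share only a number. Replicates differed by more than sampling noise. P-values of the main fit rest on the spread between the 2 libraries of a group, shared over the 4 groups. Those of a comparison thus also depend on libraries outside it. The main fit took the 2 gates of an animal as separate libraries. Alternatives were other scalings, no filter, DESeq2, the 4 libraries compared, animal and number blocks, subtraction of evenly spread reads, and leaving out each library. The members and gene lists were chosen with earlier results of these data known. Named genes are the 10 members, Sox4, Cd44 and Epcam, and of each other list those past the threshold in a comparison (at most 5 of smallest p) or else the 3 with the highest mean CPM, plus the 10 genes most like the members.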

Additional observations from a re-analysis of the deposited data

How the results depend on the processing

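Of 820 member fold changes recomputed under another setting, 698 kept their direction and their side of the threshold, 69 kept their direction and were newly called, 6 lost a call and 47 changed sign. Members called between the gates in Sox4cKO numbered 1 and were 10 on library totals, 9 by DESeq2, 4 after subtraction of evenly spread reads and 0 with the 4 libraries compared. In control they numbered 0, and 7 on library totals, 6 by DESeq2, 7 with the 4 libraries compared and 4 after subtraction. With the 4 libraries compared, 5480 of 18006 genes were called lower in control. After subtraction 472 of 18395 genes were called lower in Sox4cKO and 452 in control. With 1 library left out the members' median log2 fold change ran from -2.98 to -0.62 in Sox4cKO and from -1.99 to -0.91 in control. As for pairing, the replicate number as a block or the animal as a random block in limma-voom called 1 member (Espn) in control, the animal as a fixed block in edgeR called 0, and these blocks called 1 in Sox4cKO and changed no other call of a member. An animal block cannot give genotype comparisons in edgeR, and the fit of 4 libraries cannot give the difference between gates. Between the genotypes in CD44minus, the members' median ran from -0.74 to 1.70 with 1 library left out. Over all genes, 529 were called between the gates in Sox4cKO and 502 in control. On library totals 2039 and 2091 were called, without a filter 884 and 994, by DESeq2 1720 and 2072, with the 4 libraries compared 0 and 9877, with the number block 1832 and 3561, with the animal block 1712 and 3659, in limma-voom 1105 and 2176, and after subtraction 1904 and 2040. With 1 library left out the counts over all genes were 11 to 8440 in Sox4cKO and 0 to 7362 in control. Between genotypes 0 genes were called in each gate, and in CD44plus 17 with the 4 libraries compared, 1 with the number block and 0 to 24 with 1 library left out, in CD44minus 0 to 7613 and for the difference between gates 0 to 254 with 1 library left out. The causes were not tested.

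Small genotype differences changed sign. On library totals these were, in CD44plus, -0.089 (Espn), -0.047 (Pls1) and -0.033 (Eps8), and in CD44minus, -0.042 (Pls1) and -0.011 (Myo7b). For the difference between gates they were 0.058 (Vil1), 0.013 (Myo1a), 0.037 (Ezr), 0.16 (Cdhr2) and 0.11 (Cdhr5) on library totals and 0.048 (Vil1), 0.0056 (Myo1a), 0.021 (Ezr), 0.15 (Cdhr2) and 0.10 (Cdhr5) after subtraction. With 1 library left out, log2 fold changes between genotypes in CD44plus were -0.22 to 0.29 (Espn), -0.12 to 0.12 (Pls1), -0.17 to 0.17 (Eps8) and -0.19 to 0.32 (Myo1a). In CD44minus they were -0.72 to 1.65 (Vil1), -0.49 to 1.85 (Espn), -1.05 to 1.61 (Pls1), -0.56 to 1.81 (Eps8), -0.74 to 1.55 (Myo1a), -0.80 to 1.74 (Ezr), -0.74 to 1.66 (Cdhr2), -0.73 to 1.74 (Cdhr5), -0.81 to 1.77 (Ush1c) and -0.90 to 1.59 (Myo7b). The difference between gates was -1.41 to 0.97 (Vil1), -1.82 to 0.52 (Espn), -1.55 to 1.11 (Pls1), -1.75 to 0.63 (Eps8), -1.42 to 0.87 (Myo1a), -1.47 to 1.07 (Ezr), -1.30 to 1.09 (Cdhr2), -1.40 to 1.07 (Cdhr5), -1.97 to 0.61 (Ush1c) and -1.71 to 0.78 (Myo7b). Between the gates they were -2.16 to 0.23 (Eps8) and -2.45 to 0.15 (Ush1c) in Sox4cKO and -0.87 to 0.30 (Eps8) and -0.93 to 0.21 (Ush1c) in control. The fewest gene counts were those of replicate 1 of control CD44minus and of Sox4cKO CD44minus.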
